A study of Mus musculus with 94 samples.

Results

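Macrophages and tubular epithelial cells lie side by side in the injured kidney, and digital spatial profiling (DSP) reads both from the same spot of a section. The contrast described here was between the macrophage and the tubular segment of the same region of interest in vehicle-treated mice 14 days after renal ischemia-reperfusion injury (IRI). Its members were set by their labels, as every segment of the vehicle day 14 group with a partner of the other stain under the same region number. The contrast was picked with earlier results of these data known. They made up 16 of the 94 segments of the series, 8 stained for IBA1 and 8 for PanCK, in 8 region pairs. The pairs came from 2 sections of kidney, E1 and E2, each with 2 regions in the cortex and 2 in the medulla.

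The mice were male C57BL/6 animals given vehicle (DMSO) before the pedicle of the left kidney was clamped and released. By the paper's account, injections were then repeated until day 14. Comparison groups were mice killed on day 1 after vehicle (12 segments) and on day 14 after the SYK inhibitor entospletinib (17 segments). Control kidneys (12 segments), which the labels describe as contralateral and uninjured, were a further group, listed without treatment. All were of the same strain and sex, with 2 sections each. Vehicle-treated mice on day 7 and entospletinib-treated mice on days 1 and 7, of the same strain and sex and with 2 sections a group, were used where all other groups are named. A section was read from the prefix of the label, and no label says outright that each prefix was a different mouse. The p-values of the blocked fits thus measured the spread of the compartment difference between the sections of a group, estimated over all groups. A segment is not a pure cell type. It is the area of a region that lit up for an antibody, IBA1 being a cytoplasmic protein of macrophages and PanCK a mixture of epithelial keratins, with CD10 on the brush border as a further tubular stain. Regions were placed by these stains and by morphology.

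Ischemia kills and strips tubular epithelium, above all in the outer medulla, where oxygen is scarce. Macrophages enter the interstitium to clear debris, and in the weeks that follow they may support regrowth of the tubule or, where injury does not resolve, accompany fibrosis. Macrophages and tubular cells have very different transcriptomes, the first rich in lysosomal, antigen-presenting, and complement genes and the second in transporters and metabolic enzymes. Such genes could not be looked up here. The 20175 probes in the files carry identifiers but no gene names, so the segments could not be checked against marker genes and the contrast is described over probes, of which 4 are named by identifier.

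The macrophage segments held fewer counts than the tubular segments beside them. Their totals ran from 378678 to 947255 with a median of 577512, against 588814 to 6418303 with a median of 3194207 in the tubular segments. The tubular segment of region E1-014 was the shallowest of its kind, and the ratio of tubular to macrophage counts was 1.02 in that pair and 2.49 to 11.4 in the other pairs. No 2 segments held identical counts. Levels are given as CPM, the counts of a probe for every 1000000 counts of its segment or sum. When every segment was thinned to the lowest total, 378678 counts, the share of probes with 3 or more counts was 92.3% ± 4.31 (SD, n = 8) in macrophage and 91.4% ± 4.84 (SD, n = 8) in tubular segments. The macrophage share was higher in 8 of 8 pairs, by 0.955 ± 0.649 percentage points (SD, n = 8; exact sign-flip permutation test, two-sided, p = 0.00781, the smallest p that 8 pairs allow and too small where pairs share a section). Before thinning the order was the opposite, with a mean difference of -3.63 percentage points, and with a minimum of 1 count the thinned difference was 0.138 percentage points (exact permutation test, p = 0.0859).

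Macrophage and tubular segments differed at 831 of 20171 probes tested, or 4.12%, with a call taken as an adjusted p below 0.05 together with a log2 fold change beyond 1 in size. Of these, 418 were higher in macrophage segments (2.07% of probes) and 413 in tubular segments (2.05%). The split was 392 and 448 with TMM normalization, 371 and 475 with total counts, 388 and 450 with DESeq2, and 408 and 279 without the block by section. The median log2 fold change was 1.33 among the macrophage calls and -1.26 among the tubular calls, beside 0.055 over all probes tested. Fold changes were moderate in size. Beyond 4-fold lay 43 of the macrophage calls and 13 of the tubular calls, and the extremes were 5.92-fold toward macrophages and 4.94-fold toward tubules. Without the fold threshold 3105 probes passed (15.4%), 1620 higher in macrophage and 1485 higher in tubular segments.

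**Figure D1:**
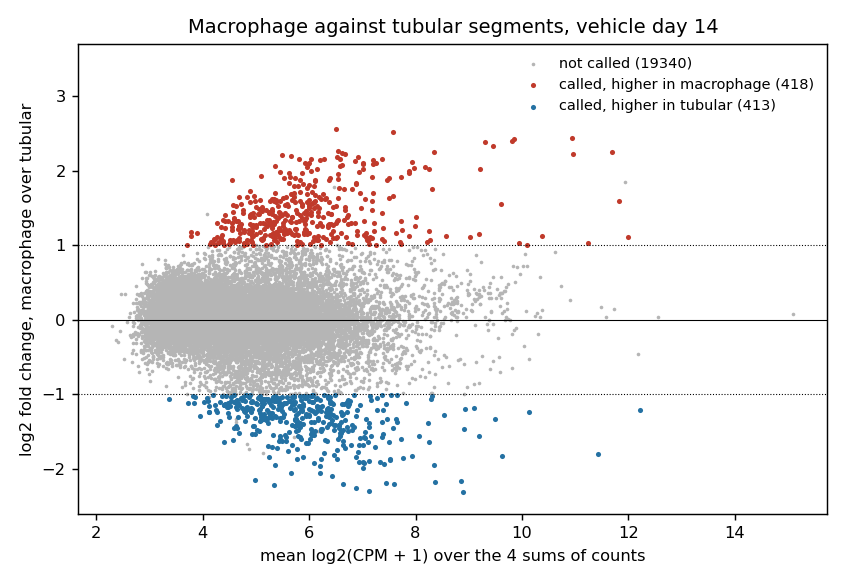
Log2 fold change of macrophage over tubular segments (vertical axis) against the mean log2(CPM + 1) of the vehicle day 14 sums (horizontal axis), 1 point per probe, with dotted lines at the fold threshold. The 418 probes called higher in macrophage and the 413 called higher in tubular segments lie mostly to the right of the dense mass of low probes.

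Calls gathered at the probes with more counts, in both directions alike. With the probes cut by mean level into 4 bins of equal size, the lowest bin ran from 3.94 to 13.2 CPM, and there 3 of 5043 probes were called toward macrophages and 3 toward tubules. In the highest bin, above 43.8 CPM, 259 (5.14%) were called toward macrophages and 254 (5.04%) toward tubules. The macrophage calls had a median level of 92.2 CPM in macrophage and 32.4 CPM in tubular segments, and the tubular calls had 35.4 and 89.2 CPM. Over all probes the median was 23.1 CPM in macrophage and 22.8 CPM in tubular segments. Probe counts include nonspecific binding that was not subtracted, since the negative probes cannot be told from the others without a probe table.

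The calls held pair by pair. Among the 418 macrophage calls 401 were higher in the macrophage segment in 8 of 8 pairs, and among the 413 tubular calls 360 were lower there in 8 of 8. Over all probes 6.15% were higher in all pairs and 8.26% were lower in all, and the fewest pairs in the direction of any call was 5 of 8. The segments of the compartments did not overlap for 339 of the macrophage calls and 110 of the tubular calls, beside 2.6% and 1.62% of all probes. The call and the pair directions come from the same counts, so these are descriptions of how evenly the pairs carried each call.

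The 4 named probes show the contrast in single segments. They were the probes with the smallest adjusted p among those with the same sign in 8 of 8 pairs, and their genes are not known here. RTS0064894 ranged from 150 CPM through a median of 216 to 251 CPM in the macrophage segments and from 20.5 through 44.8 to 69.4 CPM in the tubular segments. Every macrophage segment lay above every tubular segment. Its log2 fold change was 2.15 ± 0.12 (SE, 2 sections), or 4.45-fold (edgeR quasi-likelihood test, adjusted p = 2.06e-19). The SE and p draw on a spread estimated over all 7 groups and shared across probes, not on these 2 sections alone. The paired log2 difference was between 1.67 and 2.82. RTS0066972 ranged from 128 through 157 to 203 CPM in macrophage and from 16.5 through 39.3 to 50.7 CPM in tubular segments, again without overlap. It was 4.40-fold higher in macrophages, with a log2 fold change of 2.14 ± 0.12 (SE; adjusted p = 4.49e-19).

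Toward tubules the same rule gave probes whose segments were less evenly spread. RTS0065102 ranged from 47.2 through 176 to 248 CPM in the tubular segments and from 25.3 through 45.8 to 84.5 CPM in the macrophage segments. The cortical tubular segments of section E1 were low, at 53.5 and 47.2 CPM, and overlapped the macrophage range, while all other tubular segments were at 134 CPM or above. The log2 fold change was -1.62 ± 0.13 (SE; adjusted p = 3.29e-14). RTS0062101 ranged from 112 through 329 to 519 CPM in tubular and from 47.0 through 109 to 177 CPM in macrophage segments, with a log2 fold change of -1.53 ± 0.13 (SE; adjusted p = 3.13e-13). Here too the cortical tubular segments of E1 were the lowest, at 112 and 156 CPM, and the groups overlapped.

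**Figure D2:**
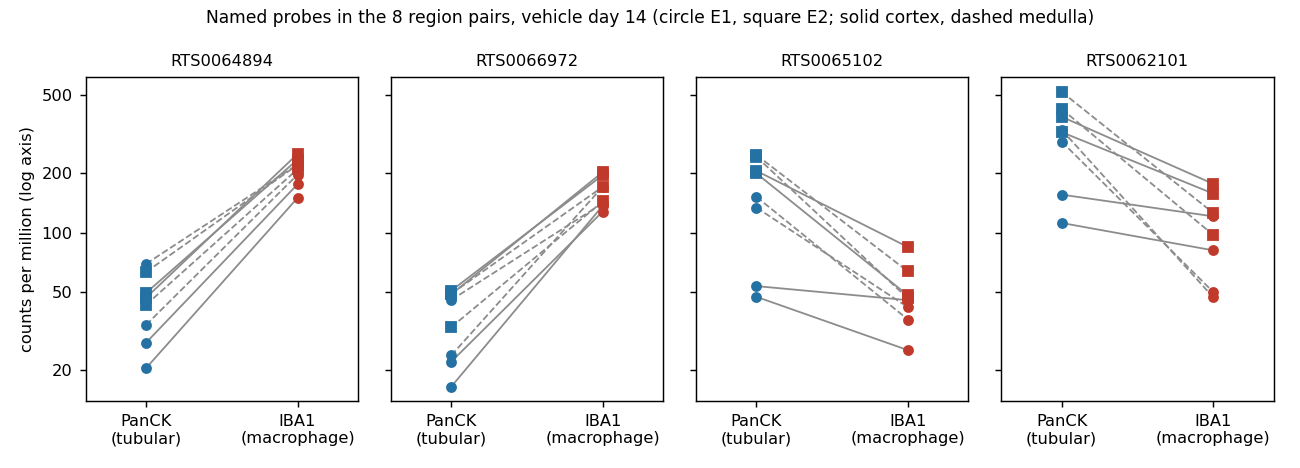
CPM of the 4 named probes (log axis) in the tubular and macrophage segment of each region, 1 line per pair, with circles for section E1, squares for E2, solid lines for cortex, and dashed lines for medulla. RTS0064894 and RTS0066972 rise toward the macrophage segment and RTS0065102 and RTS0062101 fall in all 8 pairs, with the flattest falls in cortical regions of E1.

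The contrast was set against the one seen elsewhere in the series with lists from a fit without any vehicle day 14 segment. Only the filter on low counts, which removed 4 of 20175 probes, drew on the vehicle day 14 macrophage segments. A fit of the same contrast over the 12 sections of the other 6 groups called 394 probes toward macrophages and 80 toward tubules. At vehicle day 14 all 394 had a positive log2 fold change with a median of 1.30, and all 80 had a negative one with a median of -1.50, beside a median of 0.055 over all probes. Of the 394 probes 268 were also called at vehicle day 14, which is 68.0% of that list and 64.1% of the 418 macrophage calls. Of the 80 probes 67 were also called, which is 83.8% of that list and 16.2% of the 413 tubular calls.

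Read in single pairs, the lists from the other groups kept their direction with unequal size. The median paired log2 difference of the 394 macrophage-leaning probes was 0.834 in the lowest pair, 1.34 over the pairs, and 1.85 in the highest, and 352 to 393 of them were higher in the macrophage segment, beside 44.2% to 51.4% of all probes. The median of the 80 tubule-leaning probes was -0.649 in the weakest pair and -2.10 in the strongest, with 64 to 80 of them lower. The weakest pair in both lists was E1-015, in the medulla, where the SD of the paired difference over all probes was also the smallest (0.524, against up to 0.830). In that pair 1.67% of probes were over 2-fold higher and 4.43% over 2-fold lower in the macrophage segment. Its tubular segment, at 4812779 counts, was the deepest but for that of E2-018, at 6418303, where the macrophage-leaning list had its next lowest median, 0.903. The part of depth was not tested.

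**Figure D3:**
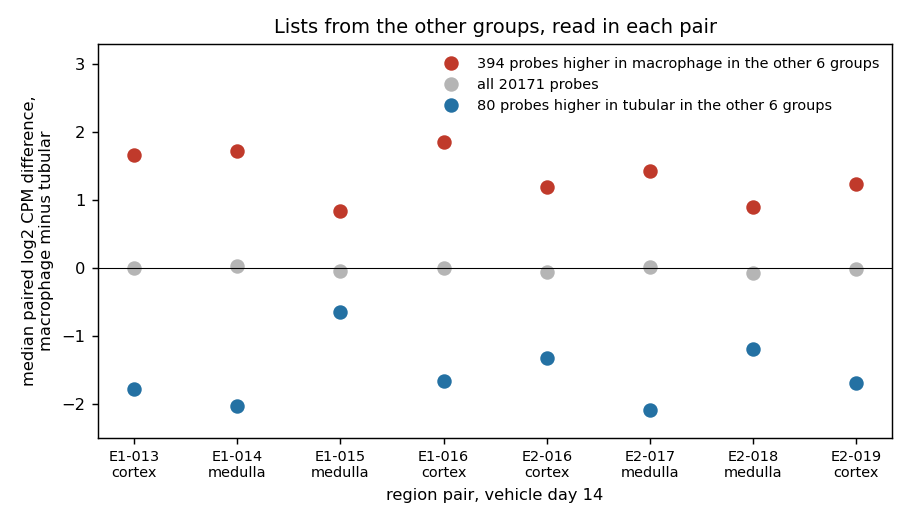
Median paired log2 CPM difference, macrophage minus tubular, in each of the 8 region pairs (horizontal axis) for all 20171 probes and for the lists called in the other 6 groups. The macrophage-leaning list sits between 0.834 and 1.85, the tubule-leaning list between -2.10 and -0.649, and all probes near 0, with E1-015 having the narrowest gap.

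The 2 sections gave like answers when each was used without the other. With section E1 alone, 404 probes were called toward macrophages and 396 toward tubules, and 403 and 393 of them had the same direction in E2, with median log2 differences there of 1.27 and -1.28. With section E2 alone, 479 and 493 probes were called, and 462 and 485 had the same direction in E1, with medians of 1.16 and -1.08. Over all probes 65.8% had the same sign in both sections. A set of 591 probes was called from each section with the same sign, which is 73.9% of the E1 calls and 60.8% of the E2 calls, and none was called with opposite signs. A lone section was assumed to vary like the sections of the other groups. The profile of paired differences over all probes correlated between any 2 pairs at 0.247 to 0.585, with a median of 0.340 for pairs of the same section and 0.346 for pairs of different sections.

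The contrast was present in cortex and medulla. In the cortex 1244 probes were called (6.17%), 623 toward macrophages and 621 toward tubules, and in the medulla 757 were called (3.75%), 366 and 391. The order of these counts depended on section E1, without which 940 probes were called in the cortex and 978 in the medulla. The regions shared 517 calls of the same direction, 41.6% of the cortical and 68.3% of the medullary list, and no probe was called in opposite directions. Shared calls toward macrophages numbered 310 and shared calls toward tubules 207. The 418 macrophage calls of the whole contrast were all higher in macrophages in each region, with a median of 1.49 in the cortex and 1.25 in the medulla, and the 413 tubular calls had medians of -1.41 and -1.23. Over all probes the medians were -0.023 and 0.071.

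The compartment difference itself changed between medulla and cortex at 120 probes (0.595%) at an adjusted p under 0.05. At an unadjusted p under 0.05 there were 1703, where a share of 0.05 of the 20171 probes tested would pass with no difference. At 62 of them it was higher in the medulla and at 58 lower, and with TMM normalization the numbers were 32 and 112. At 57 of the 120 the sign turned. Of these, 41 leaned to tubules in the cortex and to macrophages in the medulla, and 16 the reverse. At 47 further probes the sign was the same and the contrast larger in the cortex, and at 16 larger in the medulla. The differences were all at least 0.779 on the log2 scale, and 31 of the 120 probes were among the 831 calls of the whole contrast. RTS0062101 was among these calls, with a log2 fold change of -0.80 ± 0.21 (SE) in the cortex and -2.24 ± 0.23 (SE) in the medulla (adjusted p = 0.0109 for the difference). The others named did not pass, with -1.09 in cortex and -1.97 in medulla for RTS0065102 (adjusted p = 0.0749). These calls rested on section E1: without it 2 probes passed, without E2 188, and without the block by section none (345 at an unadjusted p under 0.05).

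**Figure D4:**
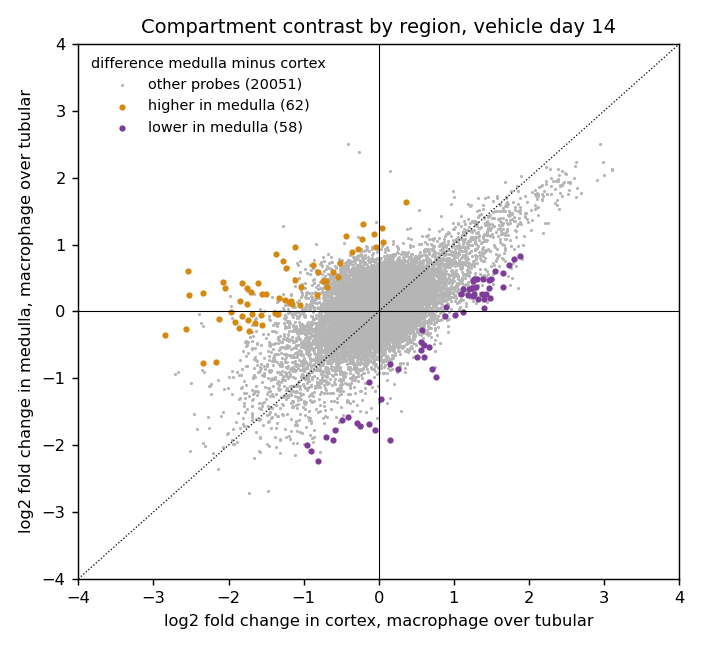
Log2 fold change of macrophage over tubular segments in the cortex (horizontal axis) and in the medulla (vertical axis), 1 point per probe, with the line of equality dotted. The 120 probes whose contrast differed between the regions are colored by direction, and 57 of them lie where the sign turns.

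Set beside the other groups, the probes called at vehicle day 14 leaned the same way in each of them and by unequal amounts. The median log2 fold change of the 418 macrophage calls was 1.56 in vehicle day 7, 1.36 in entospletinib day 14, 1.09 in vehicle day 1, 0.871 in control, 0.802 in entospletinib day 1, and 0.545 in entospletinib day 7 sections. The share of these probes above 0 ran from 86.4% in entospletinib day 7 to all of them in vehicle day 7, beside 37.5% to 45.1% of all probes in the other groups. For the 413 tubular calls the median ran from -0.417 in entospletinib day 7 to -1.21 in vehicle day 7, and 89.3% to 99.5% of them were below 0, beside 54.9% to 62.5% of all probes. No macrophage call was called in the opposite direction in another group, and of the tubular calls 1 each was in control, vehicle day 1, and entospletinib day 14. Macrophage segments of the other groups were shallower by median. Vehicle day 7 was close, with a median of 508492 counts and a range of 328462 to 771296 that overlapped that of vehicle day 14. The other medians were 186336 in vehicle day 1, 160578 in entospletinib day 14, 154086 in entospletinib day 1, 102626 in entospletinib day 7, and 73550 in control. With all sums thinned to 117693 counts the vehicle day 14 contrast itself called 218 probes.

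The lists also stood at another level in each compartment of vehicle day 14. The 394 macrophage-leaning probes of the other 6 groups held 10.9% of all counts in the macrophage segments of E1 and 13.3% in those of E2, above the range of 3.12% to 9.05% in the 12 other sections. In the tubular segments they held 4.24% and 5.45%, where the other sections held 1.02% to 2.36%. The macrophage segments of control kidneys held 4.21% and 3.93%, and those of vehicle day 1 held 5.55% and 4.52%. In entospletinib day 14 sections the shares were 5.24% and 6.96% in macrophage and 1.07% and 1.05% in tubular segments. Vehicle day 7 came nearest, at 8.65% and 9.05% in macrophage and 2.36% and 2% in tubular segments. Neither compartment of vehicle day 14 overlapped any other group. In a segment of mixed tissue, more cells of a type and more RNA per cell cannot be told apart.

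The 80 tubule-leaning probes showed the reverse. They held 1.24% and 2.11% of counts in the tubular segments of vehicle day 14, where the other sections ranged from 1.45% to 9.54% and entospletinib day 14 had 7.19% and 9.54%. In the macrophage segments they held 0.335% and 0.534%, against 0.467% to 3.86% in the other sections. Both ranges overlapped, and vehicle day 7 was at 1.45% and 3.67% in tubular and 0.467% and 0.937% in macrophage segments. Vehicle day 1 also overlapped in tubular segments, at 2.09% and 3.25%, but not in macrophage segments, at 0.923% and 1.83%. The 95% exact binomial intervals of these shares, which cover counting error alone, were within 0.047 percentage points of the value in vehicle day 14 and within 0.18 in every section.

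**Figure D5:**
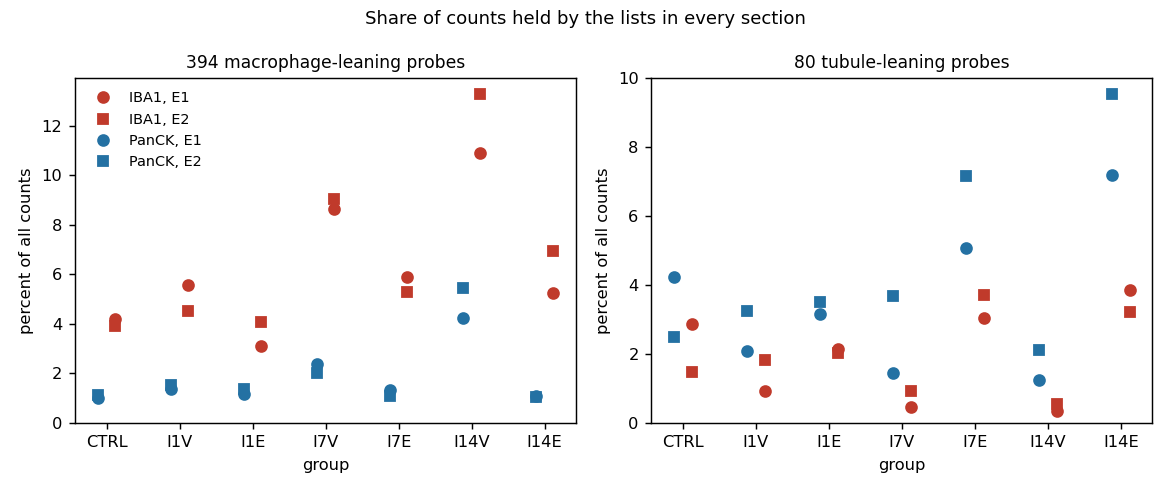
Percent of all counts held by the 394 macrophage-leaning and the 80 tubule-leaning probes of the other 6 groups, in macrophage (IBA1) and tubular (PanCK) segments of each section, with circles for E1 and squares for E2. Group codes are CTRL for control and I with the day and V (vehicle) or E (entospletinib), and I14V has the highest macrophage-leaning share in both compartments.

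Single probes did not all move with the lists. RTS0064894 was at 44.2 and 52.4 CPM in the tubular sums of vehicle day 14 and at 10.0 to 22.1 CPM in those of the other groups, while its macrophage level was 184 and 226 CPM against 31.4 to 153 CPM. RTS0062101 was at 215 and 435 CPM in the tubular sums of vehicle day 14, at 314 and 235 CPM in vehicle day 7, and at 14.4 to 32.8 CPM in the other groups. RTS0065102 was at 99.3 and 230 CPM in the tubular sums of vehicle day 14, at 117 and 110 CPM in vehicle day 7, and at 19.3 to 67.3 CPM in the other groups. Both tubule-leaning named probes were thus high in tubules of vehicle day 14, where the 80 listed probes held a low share. Both were picked by their adjusted p in vehicle day 14. That choice favors a stronger contrast there than in other groups, also in the tests that follow. RTS0062101 was higher in tubular than in macrophage sums on vehicle days 14 and 7, with log2 fold changes of -1.53 and -0.77 (adjusted p = 8.35e-06 on day 7). In the other groups the log2 fold change was between -0.20 and 0.61 and passed no test. Its compartment difference at vehicle day 14 was lower than on vehicle day 1 by a log2 of -1.76 (adjusted p = 0.0019) and than in entospletinib day 14 by -1.98 (adjusted p = 0.0004).

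Whether the contrast itself differed between groups was tested probe by probe as a difference of differences. These tests share the vehicle day 14 sums with each other. Against vehicle day 1 the compartment difference changed at 135 probes (0.669%), higher at 39 and lower at 96, where lower means a shift toward the tubular segment. Over the 96 the median log2 fold change was -0.59 at vehicle day 14 and 0.65 on day 1, and 51 of them leaned to tubules on day 14 and to macrophages on day 1. Over the 39 the medians were 0.92 and -0.42, and 31 of them leaned to macrophages on day 14 and to tubules on day 1. In levels, read as log2(CPM + 1) after upper quartile scaling, the 96 probes were higher by a median log2 of 0.72 in tubular sums of day 14 and lower by 0.45 in macrophage sums. The 39 were higher by 1.16 in macrophage sums and at -0.12 in tubular sums. Over all probes the medians were -0.27 in tubular and -0.047 in macrophage sums.

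Against entospletinib day 14, the group nearest in time and with the same layout of regions, 340 probes differed (1.69%), 77 higher and 263 lower in vehicle. Of the 263, 137 leaned to macrophages in both treatments and less so in vehicle, and 112 leaned to tubules in vehicle and to macrophages under entospletinib. The levels of these 263 probes were higher in vehicle by a median log2 of 1.46 in tubular sums and 0.36 in macrophage sums, beside -0.31 and -0.053 over all probes. Tubular level was higher in vehicle for 253 of the 263 probes. Of the 77 probes, 62 leaned to macrophages in vehicle and to tubules under entospletinib. Over all 77 the median level difference, vehicle minus entospletinib, was -0.62 in tubular sums and 0.55 in macrophage sums. Among the 41 macrophage calls of vehicle day 14 in this set 34 had a smaller contrast in vehicle and 7 a larger. All 49 tubular calls in the set had a larger contrast in vehicle. A smaller macrophage contrast and a larger tubular one are both lower differences, as were 263 of all 340. The calls were made on their contrast in vehicle, which favors a larger one there. RTS0064894 was among the 34, with a log2 difference of -0.82 (adjusted p = 0.0292), and RTS0066972 did not pass, at -0.73 (adjusted p = 0.112).

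Against uninjured control 36 probes differed (0.178%), 10 higher and 26 lower at vehicle day 14. The 10 had a median log2 fold change of 1.52 at vehicle day 14 and -0.26 in control. Their macrophage level was higher at vehicle day 14 for all 10, by a median log2 of 3.39, beside -0.042 over all probes. Their tubular level was higher for 8 of the 10, with a median of 0.61 over the 10, beside -0.27 over all probes. Of the 26, 15 leaned to tubules at vehicle day 14 and to macrophages in control. At an unadjusted p under 0.05 there were 1691 probes, where a share of 0.05 of the 20171 tested would pass with no difference. The control macrophage sums held 159453 and 298063 counts against 2773456 and 2024256 at vehicle day 14.

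The balance of directions in these tests depended on the scaling. With upper quartile normalization the median difference over all probes was 0.13 against vehicle day 1, 0.13 against entospletinib day 14, and 0.076 against control, and with TMM it was 0.002, 0.0027, and -0.012. With TMM the probes that differed numbered 26 higher and 223 lower against vehicle day 1, 42 and 385 against entospletinib day 14, and 8 and 67 against control. Of the calls made with the upper quartile 121 of 135, 303 of 340, and 34 of 36 were made with TMM in the same direction. Without the block by section the tests called 0, 1, and 0 probes, with 1180, 1237, and 1056 at an unadjusted p under 0.05. A share of 0.05 of the 20171 probes tested would pass that threshold with no difference, so these numbers are near it. Leaving out region E1-015, the pair with the narrowest contrast, lowered the calls to 48 against vehicle day 1 and to 91 against entospletinib day 14 and left 39 against control. With all sums thinned to 117693 counts the calls were 4, 14, and 3. Single sections also moved the counts. Without section E2 of vehicle day 14 the calls were 47, 126, and 8. Without E1 of vehicle day 1 there were 37 against that group, and without E2 of entospletinib day 14 there were 66. Against control there were 3 without control E1, 10 without control E2, and 68 without E1 of vehicle day 14, and leaving out the cortical pairs E1-013, E1-016, or E2-016 gave 68, 70, and 55.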

How the data were processed

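For each segment the authors deposited whole counts of unique molecular identifiers per probe of the GeoMx Mouse Whole Transcriptome Atlas, as written by the GeoMx NGS Pipeline (the file headers give version 3.1.1.5, the deposited description 2.2, and the labels 1.1), without normalization or background subtraction. Formalin-fixed, paraffin-embedded sections were used. Probe sequences and gene names were not used here. No segment was left out, and in the 16 segments studied at least 96.1% of reads aligned and saturation was at least 74.5%.

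Probes with a sum of 20 or more in the 8 macrophage segments were kept (20171 of 20175). Segments of the same section and compartment were added up to 28 sums. After upper quartile normalization, the quasi-likelihood test of edgeR (version 4.0.16, robust option, R 4.3.3) was run with the section as a block, a compartment effect per group, 7 residual degrees of freedom, and Benjamini-Hochberg adjustment. The block pairs the macrophage and tubular segments of the same regions, and between the sections of a group the deviations of the 2 compartments correlated at 0.14 to 0.58. In section E1 of entospletinib days 1 and 14, a cortical region had an extra tubular segment, which was added to the tubular sum. Region contrasts used 56 sums by section, region, and compartment with 14 residual degrees of freedom. Standard errors are the absolute log2 fold change over the square root of F. The spread behind them was estimated over all 7 groups and shared across probes. Contrasts between compartments were called where the adjusted p was below 0.05 and the log2 fold change beyond 1 in size, and differences between contrasts on the adjusted p alone. Paired differences used log2 CPM with a prior count of 2. Shares of counts have exact binomial intervals, and 3 counts were required for detection.

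The named probes are the 2 called in each direction with the smallest adjusted p among those with the same sign in 8 of 8 pairs. Alternatives were TMM, total counts, DESeq2 (version 1.42.0), other filters, no block, thinned counts, single segments with the region as a block, limma (version 3.58.1) on paired differences with a random effect of section, and fits lacking a section or pair. Thinning all sums and leaving out pairs in the differences between groups were added after seeing the data. The fits were tested on simulated data. The segments and lists were chosen with earlier results of these data known.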

Additional observations from a re-analysis of the deposited data

Results flagged for a closer look

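Of 22 sets of 8 segments or pairs examined for a sample far from the others (totals, detection, saturation, the most abundant probe, the named probes, and the summaries of the pairs), 0 had one, where chance gives about 1 in 20.

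Each of the tested differences of the compartment contrast had calls. The contrast of vehicle day 14 differed from that of vehicle day 1 at 135 probes, from that of entospletinib day 14 at 340, and from that of control at 36, and within vehicle day 14 the medulla differed from the cortex at 120. The smallest absolute log2 difference called was 0.753, 0.766, 1.23, and 0.779 in that order, and the extremes were 2.14 and -2.44 against vehicle day 1, 3.08 and -2.33 against entospletinib day 14, and 3.91 and -2.44 against control. Median macrophage depth was 577512 counts at vehicle day 14 and 186336, 160578, and 73550 in the groups it was set against. Its part in the differences was not tested apart from the thinning given with the processing.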

How the results depend on the processing

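The 831 calls of macrophage against tubular segments stayed within 1.5 times that number under 21 of 23 alternatives, with 760 to 1111 when a section or pair was left out, and of the 831 probes 1 changed sign without section E1, 23 with all sums thinned, and 0 in the other refits. Without the fold threshold there were 3105, with all sums thinned to 117693 counts 218, and without the replicate block 687 (408 higher in macrophages, 279 lower), of which 679 were among the 831. The differences between groups were less stable. Against vehicle day 1 the 135 calls became 249 with TMM, 0 without the replicate block, 4 with thinned sums, and 37 to 200 when a section or pair was left out (37 without vehicle day 1 E1, 47 without vehicle day 14 E2). Against entospletinib day 14 the 340 became 1 without the replicate block, 14 thinned, and 66 to 422 (66 without entospletinib E2, 126 without vehicle E2). Against control the 36 became 75 with TMM, 74 with DESeq2, 0 without the replicate block, 3 thinned, and 3 to 70 (3 without control E1, 8 without vehicle E2). Medulla against cortex gave 0 without the replicate block and 2 to 188 without a section. Medullary calls were 492 without the replicate block. Detection differed by 0.138 percentage points at 1 or more counts (p = 0.0859), by -3.63 without thinning, and by 0.505 to 1.41 without a section, where the exact permutation test cannot go below 0.125. The 4 named probes kept direction and call in 84 of 84 refits, which did not include the thinning of all sums. They were picked by adjusted p from the same counts that the refits used, which favors this outcome. The cause of these shifts was not tested, beyond the fewer counts that thinning leaves and the fewer sections of the reduced fits. With 2 sections a group, the fits over whole sections have 7 residual degrees of freedom of their own and the region fits 14. The sharing of spread across probes adds to these.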

Other observations

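With every sum thinned to 117693 counts, the correlation of log2 CPM over probes between the macrophage and the tubular sum of a section was 0.699 (E1) and 0.751 (E2) at vehicle day 14, and 0.659 to 0.742 in the other 12 sections. It is a correlation across probes, which are not independent replicates. E2 of vehicle day 14 thus had the highest value of the 14 sections and E1 one within the range of the others.

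At the depth of the segments themselves, the called lists took unequal shares of the library. The 418 macrophage calls held 8.47% to 12.0% of counts in the macrophage segments and 1.86% to 4.54% in the tubular segments. The 413 tubular calls held 3.92% to 11.4% in the tubular and 1.46% to 4.19% in the macrophage segments. Medullary tubular segments of E1-015 and E2-018 were the lowest of these, at 3.92% and 5.67%, and the same segments had the highest shares of the macrophage calls, 4.26% and 4.54%. The cortical tubular segments of E2-019 and E2-016 were close, at 4.25% and 4% with 3169574 and 3079326 counts. Those of E1-015 and E2-018 were the deepest of the 8 tubular segments, with 4812779 and 6418303 counts, and the part of depth was again not tested.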
